A study of Mus musculus with 8 samples.

Results

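The renin-angiotensin and endothelin systems were followed through 9 genes in mouse aorta, chosen by name: the angiotensin precursor *Agt*, the converting enzyme *Ace*, the angiotensin II receptors *Agtr1a*, *Agtr1b* and *Agtr2*, the peptide *Edn1*, its converting enzyme *Ece1*, and the endothelin receptors *Ednra* and *Ednrb*. All 9 are among the 21859 genes counted, and all 9 passed the filter on low counts that kept 15077 genes. The tissue was whole aorta of male C57BL/6 mice, 40 weeks old and on chow diet, from 4 ApoE-/- mice, which lack apolipoprotein E in all cells and develop atherosclerosis, and 4 wild-type (WT) mice. Each mouse gave 1 library of stranded, ribosome-depleted total RNA. How much outer fat, nerve and ganglion was removed from the aortas is not given in the sources used here.

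Renin cuts angiotensinogen, the product of *Agt*, to angiotensin I, and ACE, a peptidase on the cell surface, trims it to angiotensin II. Angiotensin II contracts vascular smooth muscle through AT1 receptors, which mice encode in a pair of genes, *Agtr1a* and *Agtr1b*, while the AT2 receptor (*Agtr2*) opposes many AT1 responses. Endothelial cells make endothelin-1 from *Edn1* with the help of ECE-1. The ETA receptor (*Ednra*) of smooth muscle contracts the vessel, and the ETB receptor (*Ednrb*), found on endothelium and glia, relaxes it and clears the peptide.

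Read pairs counted on genes numbered 23240995 to 23940156 in the ApoE-/- and 18375898 to 21664598 in the WT libraries. *Apoe* stood at 14.7 to 36.3 CPM (counts scaled to the TMM-normalized library size) in ApoE-/- mice and at 536 to 857 CPM in WT mice, so every library had the level of its labelled genotype. One library stood apart. ApoE-/- replicate 1 had 932 CPM of *Th* and 1431 CPM of *Dbh*, the enzymes that sympathetic neurons use to make noradrenaline, and a sum of 3007 CPM over 6 sympathetic and chromaffin markers, against 7.08 to 208 CPM in the other ApoE-/- mice and 117 to 549 CPM in WT mice. *Pnmt*, which marks the adrenaline-making chromaffin cell, was at 0.325 CPM in it. The same library had the highest sum of 6 nerve glia markers (792 CPM, against 89.2 to 575 CPM elsewhere) and the lowest sum of 12 contractile smooth muscle markers (5624 CPM, against 12440 to 23140 CPM elsewhere). For the 9 genes, the fitted genotype difference is therefore given with and without this library, and DESeq2 without it was added as an alternative after the data were seen.

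The AT1 receptor genes are close copies, and their reads can be told apart only where the sequences differ. In GENCODE M21, each coding sequence is 1077 bases long, and they differ at 99 positions (90.8% identity). The longest stretch they share, at coding bases 75 to 140, is chr13:30381028-30381093 on the plus strand for *Agtr1a* and chr3:20316301-20316366 on the minus strand for *Agtr1b* in GRCm38, and the window of 60 bases with most differences, at coding bases 964 to 1023, is chr13:30381917-30381976 and chr3:20315418-20315477. These stretches are shown because they are where a read of 50 bases is least and most able to name its gene, and capitals mark the 13 differing bases of the window.
Shared by Agtr1a and Agtr1b: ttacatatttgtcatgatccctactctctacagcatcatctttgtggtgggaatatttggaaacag
Agtr1a window: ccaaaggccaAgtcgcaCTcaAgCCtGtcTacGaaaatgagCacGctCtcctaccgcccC
Agtr1b window: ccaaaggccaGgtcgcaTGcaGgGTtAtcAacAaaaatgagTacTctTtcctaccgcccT
Of the 50-base words in the *Agtr1a* transcripts, 1.13% also occur in *Agtr1b*, and 1.54% of those of *Agtr1b* occur in *Agtr1a*. The counts of both genes are thus separate for nearly all of their length.

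In the WT aorta, the converting enzymes were the most abundant members and the AT2 receptor the least. Levels between genes were compared as CPM per kilobase of exon, as mean ± SD over the 4 WT mice. *Ece1* had 55.6 ± 2.08 and *Ace* 43.9 ± 5.18, and the WT values of these enzymes did not overlap (52.9 to 57.9 and 38.8 to 51.1). *Ednrb* followed with 16.3 ± 2.53 and *Edn1* with 10.1 ± 1.84, again without overlap. *Agtr1a* (7.38 ± 1.88) came next and *Ednra* (6.58 ± 0.37) after it, but the *Agtr1a* values, 4.65 to 8.80, overlapped those of *Edn1* above and *Ednra* below. *Agt* (4.15 ± 1.28) and *Agtr1b* (3.10 ± 0.72) overlapped each other too, and *Agtr2* lay below all of them at 0.28 ± 0.13. The order was not the same in ApoE-/- mice. In replicates 2 to 4 *Ace*, with 83.7 to 91.6 CPM per kilobase, lay above *Ece1*, with 54.8 to 73.8. In replicate 1 *Agtr1a* reached 45.6 CPM per kilobase, above *Ace* (30.7) and just below *Ece1* (51.9).

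**Figure D1:**
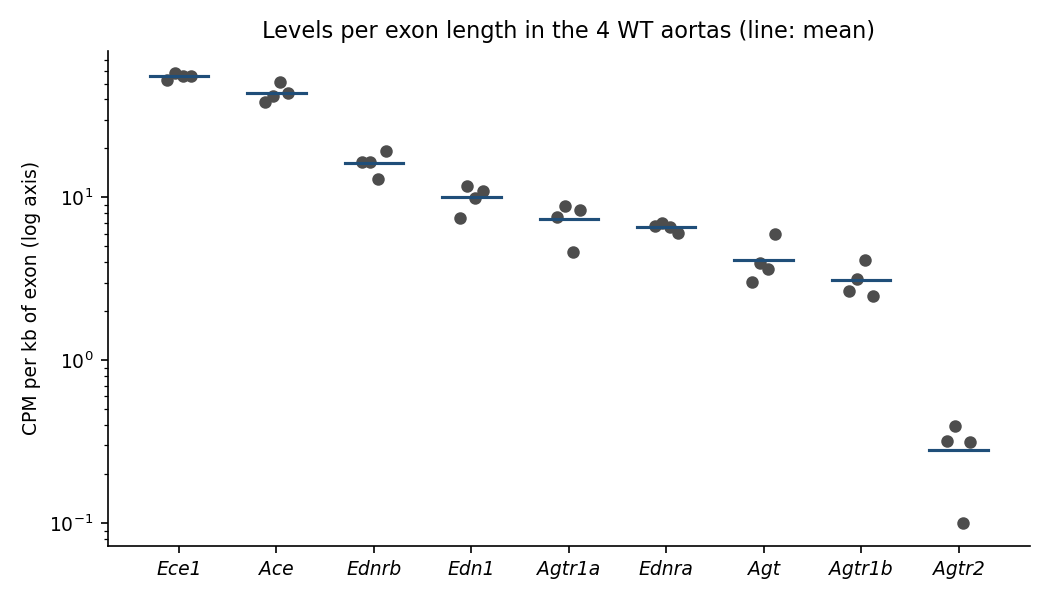
Level of each gene in the 4 WT aortas, as CPM per kilobase of exon on a log axis; points are mice and lines are means. *Ece1* and *Ace* stand at 38.8 or more in every mouse, and *Agtr2* at 0.394 or less.

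With all 8 mice, none of the 9 genes reached an adjusted p under 0.05 between genotypes, by edgeR's quasi-likelihood test or by DESeq2, which gave no adjusted p for *Agtr1a*. Of all genes tested, edgeR called 0.464% (0.371% higher, 0.0929% lower) and DESeq2 called 4.81%. Only *Ace* had an unadjusted edgeR p under 0.05, which 11.4% of all genes had. In no member did the 4 ApoE-/- values all lie above or below the 4 WT values, which was so for 8.71% of all genes (5.41% higher, 3.3% lower). Without ApoE-/- replicate 1, edgeR called *Ace* higher, where 3.91% of all genes were called (2.75% higher, 1.16% lower), and DESeq2 called *Ace* higher and *Agtr1a* lower, where 10.3% of all genes were called. The genotypes of *Ace* and *Agtr1a* then did not overlap, as for 17.3% of all genes. Both tools also called *Agtr2* lower in that fit, but it passed the filter on low counts there only through WT libraries, which fixes its direction, and no call is counted for it. In bulk tissue, fewer cells of a type and less RNA per cell cannot be told apart.

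**Figure D2:**
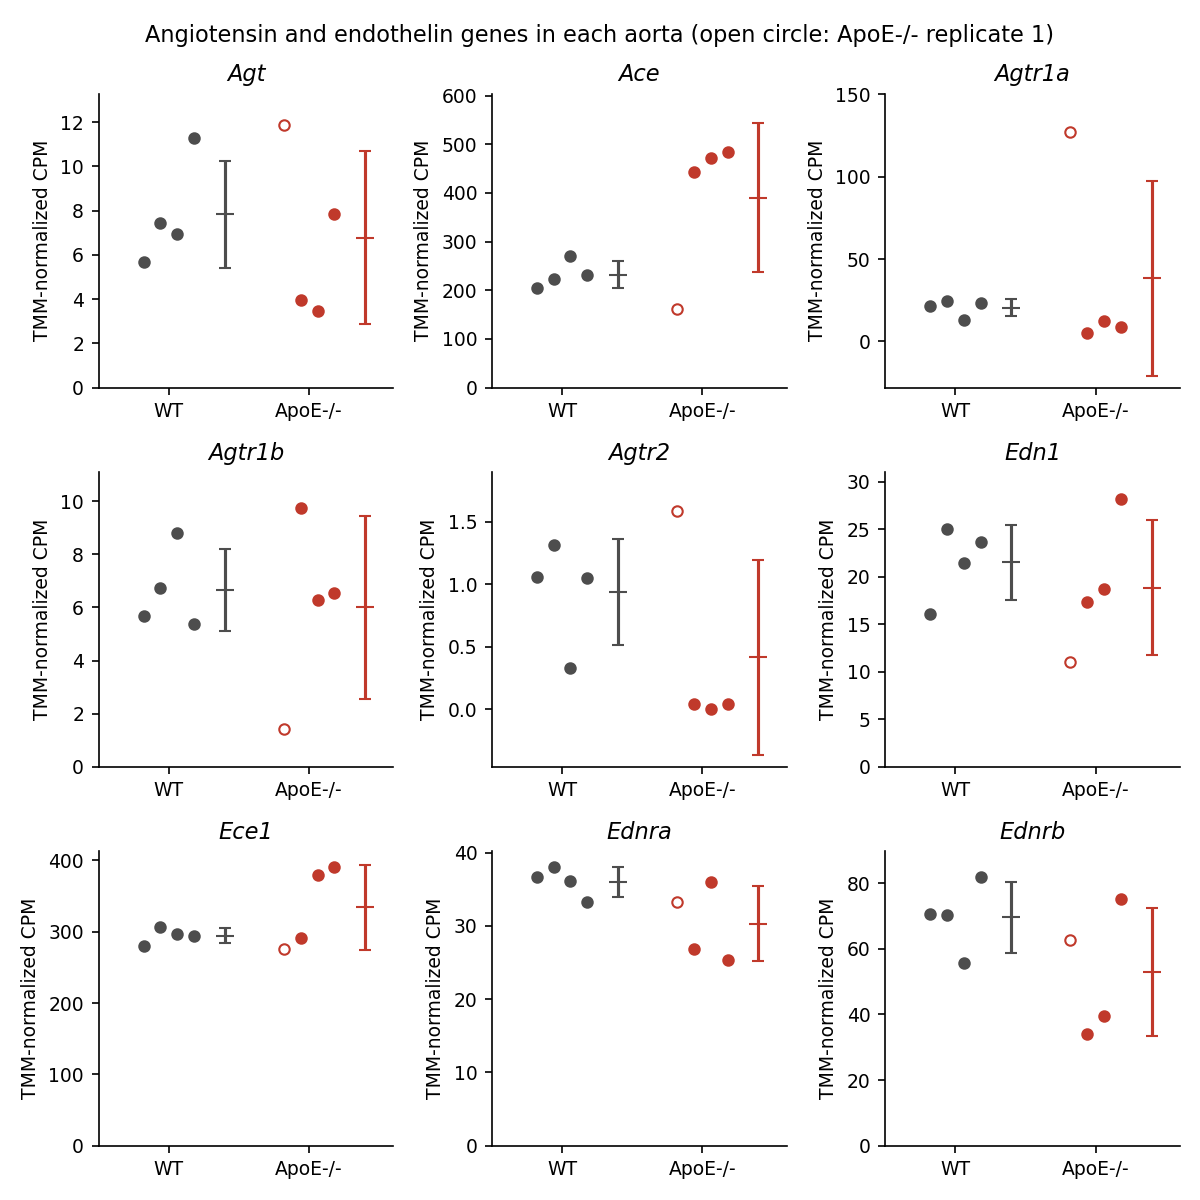
TMM-normalized CPM of each gene in each mouse, WT in grey and ApoE-/- in red, with mean and SD beside the points; the open circle is ApoE-/- replicate 1. This mouse lies far from the other ApoE-/- mice for *Ace* (162 against 442 to 484 CPM) and *Agtr1a* (127 against 5.16 to 12.6 CPM).

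*Ace* (ENSMUSG00000020681.14, chromosome 11, 105967945 to 105989964, plus strand, GRCm38) was about 2 times as abundant in 3 of the 4 ApoE-/- aortas as in WT aortas. Its values in ApoE-/- replicates 1 to 4 were 162, 442, 472 and 484 CPM. In WT replicates 1 to 4 they were 205, 223, 270 and 231 CPM. ApoE-/- replicate 1 was thus the lowest of all 8 mice, and the other 3 were each above every WT mouse. Over all mice the log2 fold change was 0.75 (SE 0.32, 95% interval 0.01 to 1.49, edgeR adjusted p = 0.432, DESeq2 adjusted p = 0.260). Without replicate 1 it was 1.01 (SE 0.13, 95% interval 0.72 to 1.30, edgeR adjusted p = 0.00871, DESeq2 adjusted p = 2.32e-13), a fold of 2.01. An antisense gene, *Gm11651*, shares 295 exonic bases with *Ace* and was not counted in these files.

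Set against smooth muscle genes, *Ace* lay higher in all 4 ApoE-/- mice than in any WT mouse, without passing the test after adjustment. The mean log2 CPM of the 12 contractile smooth muscle markers was subtracted from that of *Ace* in each mouse. This difference was −0.24, −0.42, −0.40 and 0.32 in ApoE-/- replicates 1 to 4 and −1.38, −1.20, −1.35 and −0.83 in WT replicates 1 to 4, without overlap. These markers, too, were lowest in ApoE-/- replicate 1. The group means differed by 1.00 (two-sided exact permutation test over 70 assignments, p = 0.0286, the smallest that 4 mice against 4 allow). Adjusted over the 9 such comparisons made, this exact p was 0.129. The 14 endothelial markers were themselves lower for 13 of 14 genes with none called, where 8747 of all 15077 genes were higher. Against these markers, *Ace* stood at 0.56 in ApoE-/- replicate 1, within the WT values of 0.45 to 0.79. It stood at 1.93 to 2.12 in the other ApoE-/- mice (difference of means 1.10, exact permutation p = 0.0571, adjusted 0.171). *Ace* is best known from endothelium, and macrophages make it too. In ApoE-/- and WT mice the 12 macrophage markers summed to 532 to 2177 and 432 to 512 CPM, and the 12 fibroblast markers to 6707 to 15510 and 7039 to 8123 CPM. ApoE-/- replicate 1, the mouse with least *Ace*, had the lowest macrophage sum among ApoE-/- mice and the lowest fibroblast sum of all 8 mice. In ApoE-/- replicates 2 to 4 the fibroblast sum was 10554 to 15510 CPM, above every WT mouse, as *Ace* was. The part of these cell types in the *Ace* difference was not tested. The 3 genes with the profile most like that of *Ace* were *Fbln5*, *Tm4sf1* and *Adamts2* (root mean square distances of 0.14, 0.16 and 0.16 log2 units between centred log2 profiles over the 8 libraries). *Fbln5* encodes an elastic fibre protein and *Adamts2* a procollagen peptidase.

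**Figure D3:**
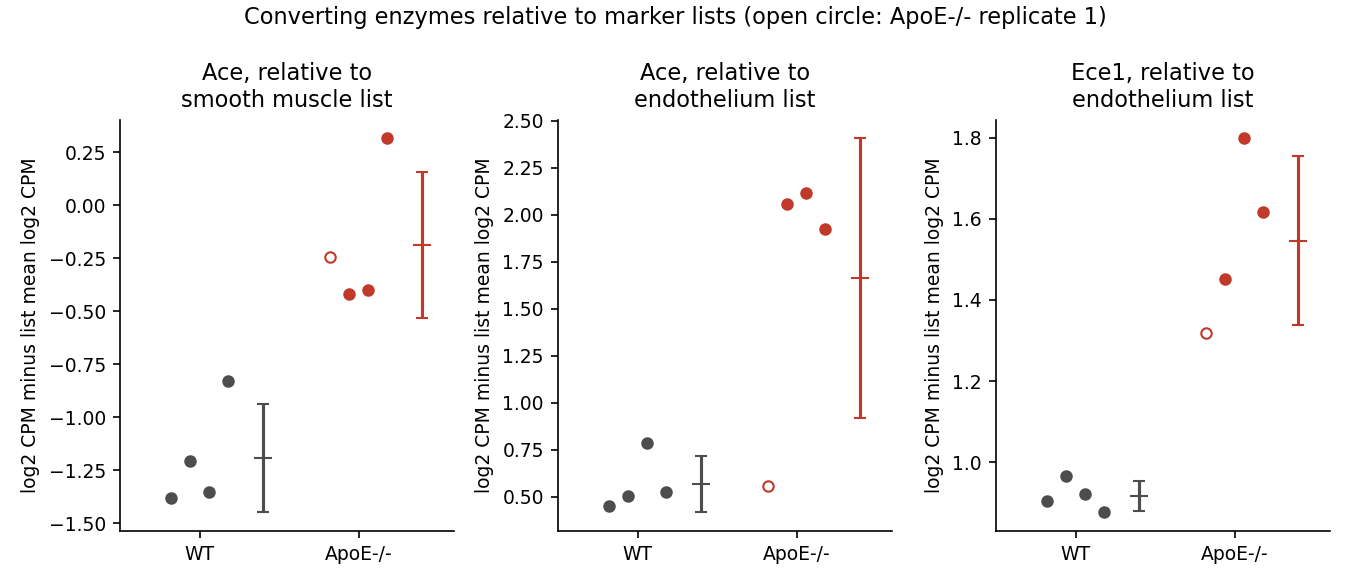
Log2 CPM of *Ace* or *Ece1* minus the mean log2 CPM of a marker list in each mouse, with mean and SD beside the points; the open circle is ApoE-/- replicate 1. *Ace* relative to smooth muscle genes and *Ece1* relative to endothelial genes separate the genotypes in all 8 mice, each with an adjusted exact permutation p of 0.129. In replicate 1 both enzymes had their lowest CPM of all 8 mice (162 and 275), so the low level of the lists enters its values. *Ace* relative to endothelial genes leaves replicate 1 (0.56) among the WT mice.

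*Agt* (ENSMUSG00000031980.10, chromosome 8, 124556534 to 124569706, minus strand) varied as much within a genotype as between them. ApoE-/- replicates 1 to 4 had 11.9, 3.98, 3.44 and 7.86 CPM, and WT replicates 1 to 4 had 5.69, 7.44, 6.93 and 11.3 CPM. The highest and lowest values were both in ApoE-/- mice. The log2 fold change was −0.21 (SE 0.42, 95% interval −1.17 to 0.75, edgeR adjusted p = 0.912), and −0.62 (SE 0.35, edgeR adjusted p = 0.396) without replicate 1. *Agt* is made by fat and adventitial fibroblasts as well as liver. Its difference between genotypes was 0.11 relative to 10 adipocyte markers (exact permutation p = 0.771, adjusted 0.971, and −0.13 without ApoE-/- replicate 1) and −0.83 relative to 12 adventitial fibroblast markers (exact permutation p = 0.229, adjusted 0.514). The value relative to fibroblast markers was −1.41 without ApoE-/- replicate 1 (adjusted exact permutation p = 0.0643), where all ApoE-/- mice lay below all WT mice, and −0.51 without ApoE-/- replicate 3.

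*Agtr1a* (ENSMUSG00000049115.15, chromosome 13, 30336441 to 30382867, plus strand) ran in opposite directions with and without 1 library. ApoE-/- replicates 1 to 4 had 127, 5.16, 12.6 and 8.85 CPM. WT replicates 1 to 4 had 21.2, 24.5, 12.96 and 23.5 CPM. ApoE-/- replicate 1 was the highest of all mice, and the other 3 ApoE-/- mice lay below every WT mouse, by a margin of 12.6 against 12.96 CPM at its narrowest. With all mice the log2 fold change was 0.90 (SE 0.96, 95% interval −1.31 to 3.11, edgeR adjusted p = 0.815). Without replicate 1 it was −1.21 (SE 0.33, 95% interval −1.98 to −0.44), with an edgeR adjusted p of 0.0937 and a DESeq2 adjusted p of 0.00696.

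The level of *Agtr1a* moved with sympathetic neuron genes and with nerve glia genes across the libraries. From low to high, *Agtr1a* ordered the libraries as ApoE-/- replicates 2, 4 and 3, then WT replicates 3, 1, 4 and 2, then ApoE-/- replicate 1. The summed sympathetic markers gave the same order except that ApoE-/- replicate 3 (208 CPM) and WT replicate 3 (117 CPM) changed places. Summed nerve glia markers gave the *Agtr1a* order exactly, with ApoE-/- replicate 3 at 163 CPM and WT replicate 3 at 245 CPM. *Th* itself was 1.18 CPM in ApoE-/- replicate 2, the mouse with least *Agtr1a*, and 932 CPM in replicate 1. The 3 genes whose log2 profiles over the 8 libraries lay closest to that of *Agtr1a*, among 11935 candidates with a mean of 5 CPM or more, were *Kif21a*, *Snhg11* and *Septin3*. Their root mean square distances from it were 0.09, 0.13 and 0.17 log2 units, where *Agtr1a* itself had an SD of 1.28. *Kif21a* encodes a kinesin motor and *Septin3* a septin, both known from neurons. Relative to smooth muscle genes, *Agtr1a* differed by 0.10 between genotypes (exact permutation p = 0.943, adjusted 0.971), and by −1.24 without ApoE-/- replicate 1 (adjusted exact permutation p = 0.171). The part of nerve tissue in the *Agtr1a* values was not tested.

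**Figure D4:**
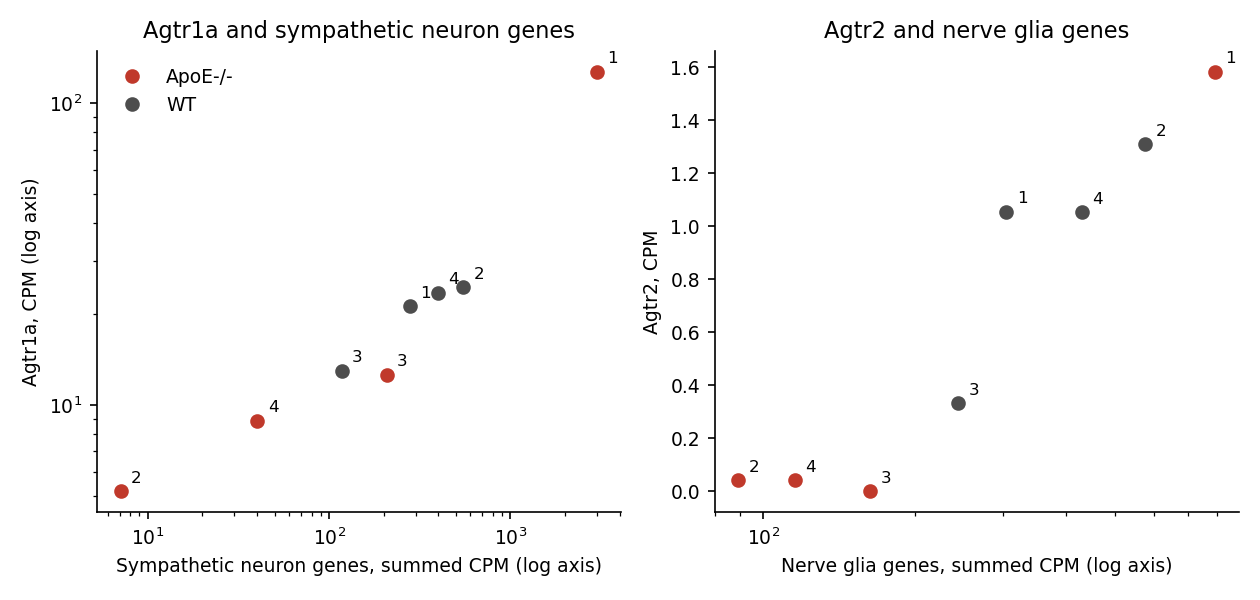
Left, *Agtr1a* CPM against the summed CPM of 6 sympathetic and chromaffin markers, both on log axes; right, *Agtr2* CPM against the summed CPM of 6 nerve glia markers on a log axis; each point is a mouse, numbered by replicate. ApoE-/- replicate 1 lies at the upper right of both plots (127 CPM at 3007, and 1.58 CPM at 792), and ApoE-/- replicate 2 has the lowest marker sum in both.

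*Agtr1b* (ENSMUSG00000054988.9, chromosome 3, 20314473 to 20367177, minus strand) did not follow its copy. ApoE-/- replicates 1 to 4 had 1.42, 9.75, 6.27 and 6.55 CPM, and WT replicates 1 to 4 had 5.69, 6.74, 8.81 and 5.36 CPM. Replicate 1 of the ApoE-/- mice was here the lowest of all 8 and replicate 2 the highest, the reverse of *Agtr1a*. The log2 fold change was −0.15 (SE 0.49, 95% interval −1.27 to 0.98, edgeR adjusted p = 0.954), and 0.18 (SE 0.24, edgeR adjusted p = 0.775) without replicate 1. Its nearest profiles were those of *Fam81a*, *Csrp2* and *Nox4*, at 0.12, 0.13 and 0.15 log2 units. *Csrp2* encodes a protein of smooth muscle and *Nox4* an NADPH oxidase of the vessel wall. Per kilobase, *Agtr1a* was 1.13 to 3.38 times *Agtr1b* in WT mice, 0.408 to 1.55 times in ApoE-/- replicates 2 to 4, and 68.9 times in ApoE-/- replicate 1.

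*Agtr2* (ENSMUSG00000068122.10, chromosome X, 21484544 to 21489164, plus strand) was near the detection limit. Its counts were 39, 1, 0 and 1 read pairs in ApoE-/- replicates 1 to 4 and 23, 28, 6 and 22 in WT replicates 1 to 4, or 1.58, 0.044, 0 and 0.043 CPM against 1.06, 1.31, 0.332 and 1.05 CPM. Replicate 1 held nearly all *Agtr2* reads of the ApoE-/- mice, and the other 3 had fewer than any WT mouse. With all mice the log2 fold change was −1.14 (SE 1.16, 95% interval −3.82 to 1.53, edgeR adjusted p = 0.810). Without replicate 1 the gene passed the filter only through WT libraries, so that fit is no test of its difference. ApoE-/- replicates 2 to 4 held only 2 counts together, against 79 in the WT libraries. No test is drawn from these counts. The summed nerve glia markers ordered the libraries much as *Agtr2* did. ApoE-/- replicates 2, 4 and 3 had the lowest glia sums (89.2, 115 and 163 CPM), WT mice had 245 to 575 CPM and ApoE-/- replicate 1 had 792 CPM. The nearest profile was that of *Cldn19*, a claudin known from Schwann cells, at 0.67 log2 units. The part of nerve tissue in the *Agtr2* difference was not tested.

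**Figure D5:**
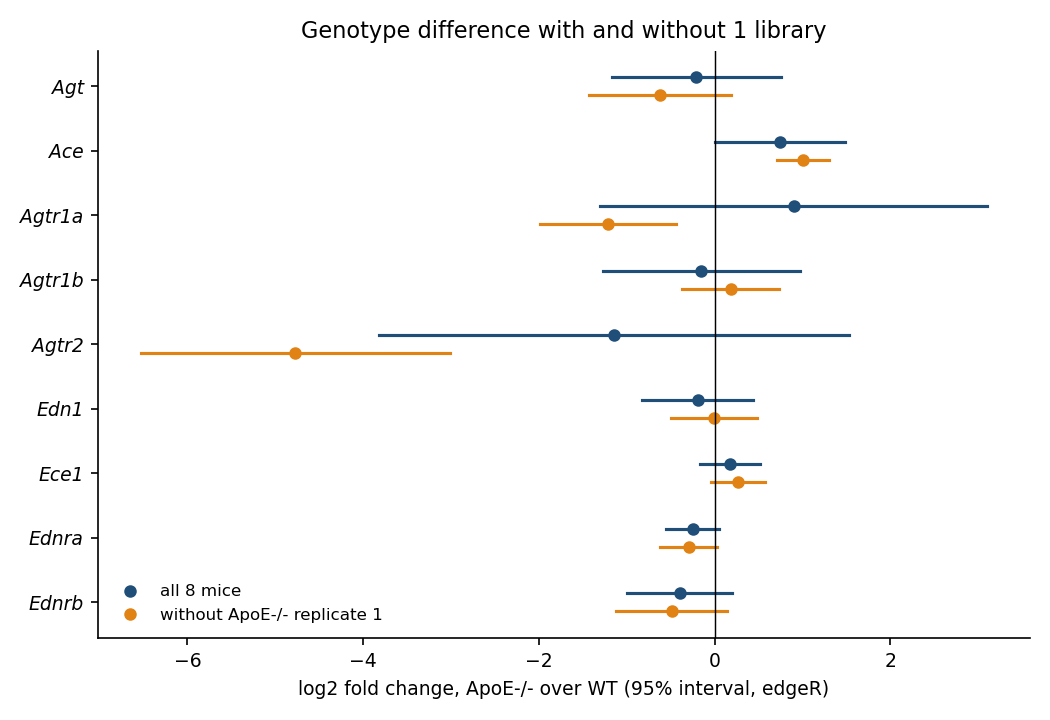
Log2 fold change of ApoE-/- over WT with its 95% interval from edgeR, with all 8 mice (blue) and without ApoE-/- replicate 1 (orange). Without that library the interval of *Ace* narrows to 0.72 to 1.30, *Agtr1a* changes sign, and the *Agtr2* estimate, which rests on 2 ApoE-/- counts, is no bound on the true fold.

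The endothelin genes showed smaller differences than *Ace* and none passed the test with or without replicate 1. *Edn1* (ENSMUSG00000021367.8, chromosome 13, 42301476 to 42307990, plus strand) had 11.0, 17.4, 18.7 and 28.2 CPM in ApoE-/- replicates 1 to 4. WT replicates 1 to 4 had 16.1, 25.0, 21.4 and 23.6 CPM. The ApoE-/- mice held both the lowest and the highest value. The log2 fold change was −0.19 (SE 0.28, 95% interval −0.83 to 0.44, edgeR adjusted p = 0.860), and −0.0063 (SE 0.21, edgeR adjusted p = 0.994) without replicate 1. *Edn1* has an antisense neighbour, *Gm47118*, with 35 shared exonic bases, which was not counted in these files.

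*Ece1* (ENSMUSG00000057530.14, chromosome 4, 137862237 to 137965229, plus strand) had 275, 291, 379 and 391 CPM in ApoE-/- replicates 1 to 4 and 280, 307, 297 and 294 CPM in WT replicates 1 to 4. Replicates 3 and 4 of the ApoE-/- mice lay above all WT mice and replicates 1 and 2 did not. The log2 fold change was 0.18 (SE 0.15, 95% interval −0.16 to 0.52, edgeR adjusted p = 0.768), and 0.26 (SE 0.13, edgeR adjusted p = 0.336) without replicate 1. Relative to the 14 endothelial markers, *Ece1* was at 1.32, 1.45, 1.80 and 1.62 in ApoE-/- replicates 1 to 4 and at 0.88 to 0.97 in the 4 WT mice. These values did not overlap, and the means differed by 0.63 (exact permutation p = 0.0286, adjusted 0.129). The endothelial sum was 2164 to 3017 CPM in ApoE-/- and 3034 to 3554 CPM in WT mice, so the lower sum of the list enters this difference beside the *Ece1* values.

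*Ednra* (ENSMUSG00000031616.7, chromosome 8, 77663031 to 77724464, minus strand) had 33.2, 26.8, 36.0 and 25.3 CPM in ApoE-/- replicates 1 to 4. WT replicates 1 to 4 had 36.7, 38.1, 36.1 and 33.3 CPM. The WT values lay close together, and 3 of the 4 ApoE-/- mice were below all of them. The log2 fold change was −0.25 (SE 0.13, 95% interval −0.55 to 0.05, edgeR adjusted p = 0.568), and −0.29 (SE 0.14, edgeR adjusted p = 0.320) without replicate 1. In ApoE-/- replicate 1 the smooth muscle markers were lowest and *Ednra* was not, and relative to these markers it ran from −2.53 in that mouse to −4.46 in ApoE-/- replicate 2, with WT mice at −4.25 to −3.62 (difference 0.11, exact permutation p = 0.914, adjusted 0.971, and −0.30 without ApoE-/- replicate 1). The antisense gene *4933431K23Rik* shares 91 exonic bases with *Ednra* and was not counted.

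*Ednrb* (ENSMUSG00000022122.15, chromosome 14, 103814625 to 103844402, minus strand) had 62.7, 34.0, 39.6 and 75.2 CPM in ApoE-/- replicates 1 to 4 and 70.5, 70.2, 55.5 and 81.9 CPM in WT replicates 1 to 4. ApoE-/- replicates 2 and 3 were below every WT mouse, while replicates 1 and 4 were within the WT range. The log2 fold change was −0.39 (SE 0.26, 95% interval −0.99 to 0.20, edgeR adjusted p = 0.687), and −0.49 (SE 0.27, edgeR adjusted p = 0.398) without replicate 1. Relative to endothelial markers the difference was 0.0090 (exact permutation p = 0.971, adjusted 0.971), and −0.11 without ApoE-/- replicate 1. Per kilobase, *Ednra* was 0.262 to 0.708 times *Ednrb* in ApoE-/- mice and 0.317 to 0.507 times in WT mice, and thus below it in all 8 aortas. For *Edn1* relative to endothelial markers the difference was 0.21 (exact permutation p = 0.400, adjusted 0.720), and it ran from 0.053 without ApoE-/- replicate 4 to 0.43 without replicate 1 (adjusted exact permutation p = 0.103), where the genotypes did not overlap. It was 0.10 without WT replicate 1. The nearest profiles were those of *Mfng*, *Gstt2* and *Pkp2* for *Ednrb*, *Wdr90*, *Zfp13* and *Jrk* for *Ednra*, *Dpep1*, *Slc10a6* and *Chrdl1* for *Edn1*, and *Gm6169*, *Snapc2* and *Abi1* for *Ece1*, all within 0.16 log2 units.

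Of the other genes of the renin-angiotensin system, 18 of 21 could be tested, and edgeR called none of them, against 0.464% of all genes. An unadjusted edgeR p under 0.05 was found for 4 of them, against 11.4% of all genes, and DESeq2 called 1, against 4.81%. Their median log2 fold change was 0.18, against 0.05 over all genes. The gene DESeq2 called was *Ctsd*, the lysosomal protease cathepsin D, which can cut angiotensinogen, with 402, 379, 444 and 817 CPM in ApoE-/- and 295, 251, 245 and 327 CPM in WT mice. It had a log2 fold change of 0.87 (edgeR adjusted p = 0.215, DESeq2 adjusted p = 0.0375), and its genotypes did not overlap. Without ApoE-/- replicate 4, its highest value, the log2 fold change was 0.55 (edgeR adjusted p = 0.194). Macrophages are rich in cathepsin D, and the macrophage list was higher for 12 of its 12 genes, with 1 called. Over all genes, 8747 of 15077 were higher and edgeR called 0.464%. The part of macrophages in the *Ctsd* difference was not tested. *Lnpep* and *Mme*, which encode angiotensin-degrading peptidases, had log2 fold changes of −0.0037 and −0.00013, and *Atp6ap2*, the prorenin receptor, 0.47 (edgeR adjusted p = 0.595). *Atp6ap2* was at 161 CPM in ApoE-/- replicate 1, 73.5 to 98.2 CPM in the other ApoE-/- mice and 64.5 to 83.1 CPM in WT mice, and its log2 fold change without replicate 1 was 0.16 (edgeR adjusted p = 0.655).

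Further genes of this system are named here although their values had been seen. Renin (*Ren1*) was at 5.84, 0.219, 10.1 and 11.3 CPM in ApoE-/- and 1.79, 6.60, 3.55 and 0.862 CPM in WT mice. The genotypes overlapped, and the SE of its log2 fold change of 1.10 was 0.97 (edgeR adjusted p = 0.785). Kidney tubule markers, a sign of attached kidney tissue, summed to 3.96 to 13.7 CPM in ApoE-/- and 5.23 to 33.1 CPM in WT mice. *Anpep*, aminopeptidase N, which degrades angiotensin III, was like *Ace* in its pattern, with 40.1, 75.4, 99.3 and 98.3 CPM in ApoE-/- and 47.4 to 49.0 CPM in WT mice. It had a log2 fold change of 0.70 with all mice (edgeR adjusted p = 0.327) and 0.92 without replicate 1 (edgeR adjusted p = 0.00829). *Enpep*, aminopeptidase A, which makes angiotensin III, had 31.4, 52.7, 38.7 and 52.2 CPM against 29.1 to 36.5 CPM (log2 fold change 0.41, edgeR adjusted p = 0.434, and 0.54 with 0.0755 without replicate 1). Without that mouse the genotypes did not overlap for *Enpep*, and its DESeq2 adjusted p was 0.0143.

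Among the other endothelin genes, 5 of 8 could be tested, and none was called by edgeR (0.464% of all genes) or at an unadjusted edgeR p under 0.05 (11.4% of all genes). DESeq2 called none (4.81% of all genes), but gave no adjusted p for *Edn3* and *Ecel1*. The peptide gene *Edn3* was at 18.9 CPM in ApoE-/- replicate 1, at 0.700 to 1.74 CPM in the other ApoE-/- mice and at 1.44 to 3.51 CPM in WT mice. *Ecel1*, an ECE-like peptidase of neurons, had 18.7 CPM in that mouse and 0.700 to 1.87 CPM and 1.66 to 4.12 CPM in the others. Their log2 fold changes of 1.21 and 1.07 became −1.02 and −1.21 without replicate 1, as with *Agtr1a*. *Furin* and *Pcsk7*, convertases of the proendothelin family, had 0.06 and −0.26 (edgeR adjusted p = 0.937 and 0.595).

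Below the receptors, the 32 genes of Gq and G12/13 signalling were all tested, edgeR called none (0.464% of all genes) and DESeq2 called 3 (4.81% of all genes), with 3 at an unadjusted edgeR p under 0.05 (11.4% of all genes). *Plcb2*, a phospholipase C of blood cells, was at 5.97, 4.50, 6.40 and 8.16 CPM in ApoE-/- and 2.80, 2.39, 1.61 and 1.77 CPM in WT mice. It had a log2 fold change of 1.54 (edgeR adjusted p = 0.0526, DESeq2 adjusted p = 1.62e-05), and without replicate 1 edgeR called it (1.56, adjusted p = 0.0247). *Grk2*, a kinase that desensitizes receptors, and *Arrb2*, an arrestin that binds them next, had 0.25 and 0.66 (edgeR adjusted p = 0.264 and 0.127, DESeq2 adjusted p = 0.0162 and 0.0168). Without replicate 1 the DESeq2 call of *Grk2* was lost (adjusted p = 0.0609), and DESeq2 called *Prkce*, a protein kinase C, lower (adjusted p = 0.0324). With all mice the genotypes did not overlap for *Plcb2*, *Grk2*, *Arrb2* and *Plcb3*, 4 of 32 genes, against 8.71% of all genes. *Plcb3* had 0.23 (edgeR adjusted p = 0.536), and 0.14 without ApoE-/- replicate 1 (edgeR adjusted p = 0.496). The genes of contraction were not called: *Mylk*, the myosin light chain kinase, had a log2 fold change of −0.11, *Ppp1r12a*, the targeting subunit of myosin phosphatase, −0.16, *Rgs5* −0.18 and *Itpr1* 0.0084, and all 4 were lowest in ApoE-/- replicate 1.

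In the opposing vasodilator systems, 18 of 22 genes could be tested, and *Npr3*, the clearance receptor for natriuretic peptides, was the only gene edgeR called, against 0.464% of all genes. An unadjusted p under 0.05 was found for 4 of the 18, against 11.4% of all genes, and DESeq2 called 3, against 4.81%. *Npr3* had 33.1, 40.1, 45.6 and 39.8 CPM in ApoE-/- and 99.8, 88.1, 63.7 and 89.8 CPM in WT mice, with no overlap. It was lower by a log2 value of −1.11 (SE 0.16, edgeR adjusted p = 0.0396, DESeq2 adjusted p = 4.60e-07). The edgeR call was lost when any mouse but ApoE-/- replicate 1 was left out (adjusted p = 0.0647 to 0.149). Limma-voom and edgeR with a block for the replicate number did not call *Npr3* either. DESeq2 also called *Nppa*, the atrial natriuretic peptide, lower (log2 fold change −3.49, edgeR adjusted p = 0.109, DESeq2 adjusted p = 1.12e-04), and *Ptgir*, the prostacyclin receptor, higher (0.78, edgeR adjusted p = 0.124, DESeq2 adjusted p = 0.0148). *Nppa* was at 0.391 to 3.21 CPM in ApoE-/- and 3.83 to 30.0 CPM in WT mice. Of the cardiac muscle markers, 7 of 7 tested were lower too, with none called, where 8747 of all 15077 genes were higher. The mean log2 CPM of these 7 was 4.09, 2.08, 2.12 and 2.18 in ApoE-/- replicates 1 to 4 and 4.71 to 5.89 in WT mice. All 9 listed cardiac markers summed to 143 to 336 CPM against 352 to 580 CPM. Without ApoE-/- replicate 1 edgeR called *Nppa* too (log2 fold change −4.27, adjusted p = 0.0314). The part of attached heart tissue was not tested. The most abundant others, *Gucy1a1*, *Pde5a*, *Npr1* and *Ptgis*, had log2 fold changes of −0.072, 0.12, 0.0092 and 0.22, none called.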

How the data were processed

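Per the labels, each library was made from the aorta of 1 mouse. The authors deposited counts of read pairs per gene, with no normalization. The submitters' processing notes name TopHat2, HTSeq and GRCm38 (mm10), and the versions are not given in the sources used here. Pairs assigned to no single gene, those aligned to several places included (64.4% to 67.7% of pairs in ApoE-/- and 69.8% to 72.1% in WT libraries) stayed out of library sizes. Of 21859 gene identifiers, 21817 had an entry in GENCODE M21 on GRCm38, the source of coordinates, exon lengths and the transcript sequences.

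In R 4.3.3, genes were filtered with filterByExpr of edgeR 4.0.16, scaled by TMM and compared between genotypes with the two-sided quasi-likelihood F test (robust), adjusted by Benjamini-Hochberg over 15077 genes, threshold 0.05. The SE was the log2 fold change over the square root of F. DESeq2 1.42.0, which the study's methods name, limma 3.58.1 (voom), other scaling and filters, fitting without robust estimation, a block for the replicate number and omitting each mouse in turn were alternatives. Differences from marker lists used a prior count of 2 for log2 CPM and exact permutation tests. Scripts were tested on simulated data. The members and lists were chosen with earlier results of these data known. Named genes were the 9 members, *Apoe*, list genes called by either tool or, among genes tested, without overlap, the 4 most abundant of each list, and the 3 nearest profiles of a member. *Ren1*, *Anpep*, *Enpep* and *Prkce* were named after their values were seen. As examples of the level of a marker list, *Th*, *Dbh* and *Pnmt* were named too. With 1 library per mouse, p-values measure the spread between mice. The libraries were stranded, and antisense genes that share exonic bases with a member are named beside it.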

Additional observations from a re-analysis of the deposited data

Results flagged for a closer look

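In groups of 4 mice, a value was marked when its gap to the nearest mouse, divided by the whole range of the group, exceeded Dixon's critical value at the 95% level. Of 90 groups examined, 9 were marked, where chance gives about 4.5. ApoE-/- replicate 1 accounted for *Ace* (0.871, the lowest value), *Agtr1a* (0.939), *Agtr2* (0.972), *Edn3* (0.943), *Ecel1* (0.935) and *Plcb3* (0.851), all but *Ace* being the highest of their group, and for the mean log2 level of the cardiac muscle markers (0.951, the highest). ApoE-/- replicate 4 was marked for *Ctsd* (0.851, the highest) and WT replicate 2 for *Furin* (0.848, the lowest).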

How the results depend on the processing

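Over all genes, edgeR called 70, 56 higher and 14 lower. DESeq2 called 725 (470 and 255), limma-voom 29 (21 and 8), DESeq2 without ApoE-/- replicate 1 called 1562 (871 and 691), and a minimum of 10 counts in every library left 9 lower genes. Leaving out 1 mouse gave 0 to 593 genes (0 to 417 higher, 0 to 176 lower), with 593 without ApoE-/- replicate 1. The replicate block gave 2 genes (1 and 1). Deviations of same-numbered mice correlated at 0.06, −0.45, 0.32 and 0.16. The numbers belong to different mice, and these values cannot tell whether same-numbered aortas shared a preparation. Under the block no vasodilator gene was called and *Agtr1a* was −0.38, *Edn3* −0.12, *Ecel1* −0.35, *Itpr1* −0.051, *Pde5a* −0.010, *Npr1* −0.060 and *Ptgis* −0.015. Of the 9 members, 0 to 2 were called by edgeR when 1 mouse was left out. The 2, without ApoE-/- replicate 1, were *Ace* and *Agtr2*. There *Agtr2* passed the filter only through WT libraries, and no call is counted for it. DESeq2 without that mouse called 3, with *Agtr2* again among them. That fit gave *Ace* 1.00, *Agtr1a* −1.22, *Agtr1b* 0.18, *Agtr2* −5.03, *Lnpep* 0.11, *Edn3* −1.04, *Ecel1* −1.22, *Mylk* 0.16, *Ppp1r12a* 0.10 and *Rgs5* 0.10, and called 3, 3 and 4 genes of the renin-angiotensin, Gq and vasodilator lists. With all mice DESeq2 called 1, 3 and 3, and limma-voom called 0 vasodilator genes.

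Leaving out 1 mouse gave log2 fold changes of −0.62 to 0.020 for *Agt*, 0.63 to 1.01 for *Ace*, −1.21 to 1.27 for *Agtr1a*, −0.49 to 0.18 for *Agtr1b* and −4.77 to −0.74 for *Agtr2*. They were −0.46 to −0.0063 for *Edn1*, −0.34 to −0.17 for *Ednra*, −0.61 to −0.23 for *Ednrb* and 0.096 to 0.26 for *Ece1*. The same ranges were −0.16 to 0.11 for *Lnpep*, −0.40 to 0.25 for *Mme*, −1.02 to 1.58 for *Edn3*, −1.21 to 1.44 for *Ecel1*, −0.027 to 0.16 for *Furin*, −0.16 to 0.20 for *Itpr1*, −0.34 to 0.16 for *Mylk*, −0.42 to 0.11 for *Ppp1r12a*, −0.42 to 0.10 for *Rgs5*, −0.18 to 0.028 for *Gucy1a1*, −0.11 to 0.40 for *Pde5a*, −0.21 to 0.21 for *Npr1* and −0.053 to 0.55 for *Ptgis*. Leaving out 1 mouse called 0 to 1 renin-angiotensin, 0 to 1 Gq and 0 to 2 vasodilator genes. Relative to a marker list they were −0.30 to 0.35 for *Ednra* and −1.24 to 0.83 for *Agtr1a* (smooth muscle), −0.13 to 0.17 for *Ednrb* (endothelium) and −0.13 to 0.30 for *Agt* (adipocyte). The list median in place of its mean gave −0.026, −0.038 and −0.061 for the first 3. Limma-voom gave −0.27 for *Agtr1a*, −0.17 for *Ecel1*, −0.052 for *Itpr1*, −0.020 for *Pde5a*, −0.061 for *Npr1* and −0.049 for *Ptgis*, and upper-quartile factors gave −0.014 for *Itpr1* and −0.013 for *Npr1*. The cause was not tested. Depth limits *Agtr2*, with 39 counts or fewer in every library.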
